A study of Mus musculus with 6 samples.

Results

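The 35 genes described here encode the transcription factor NRF2 (Nfe2l2), its regulators, and the glutathione, thioredoxin, peroxiredoxin and NADPH-producing enzymes that handle oxidants. They were chosen by symbol, with earlier results of these data known, and all 35 were found among the 43432 genes of the deposited table. The RNA came from macrophages sorted from the mammary glands of female FVB/N mice carrying MMTV-PyMT, a transgene in which a mouse mammary tumour virus promoter drives the polyoma middle T oncogene in mammary epithelium. Cells positive for CD45 (leukocytes), MHC class II (antigen presentation) and CD14 (a lipopolysaccharide co-receptor) were kept. The 2 groups are glands taken at 8 weeks and at 11 weeks, 3 libraries each; both carry the transgene, and no group without it was analysed here. Within an age the samples are named an1 to an3, and the labels do not say that these are separate animals. The p-values therefore reflect sample-to-sample spread, part of which may be technical.

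NRF2 is held in the cytoplasm by KEAP1, which presents it to a ubiquitin ligase for degradation. Oxidants and electrophiles modify KEAP1, and NRF2 then enters the nucleus, pairs with a small MAF protein and binds antioxidant response elements near genes for glutathione synthesis, thioredoxin reduction and NADPH supply. In macrophages these enzymes limit damage from the cells' own oxidative burst and from the heme and iron of engulfed cells.

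Depth was 38784434 to 75004880 reads per library, and 35.2% to 51.8% of the normalized counts were mitochondrial ribosomal RNA. Values are normalized counts, that is, gene counts divided by a size factor per library. All 11 macrophage markers were detected (8 of 11 with a positive log2 fold change). Their summed level was 726342.9 to 925073.2 at 8 weeks and 786161.4 to 886121.7 at 11 weeks. Cd14 is among them and its protein was used in the sort, so their detection is not an independent check of identity. Markers of other cells were higher at 11 weeks in several lists. The 13 mammary epithelial markers summed to 9298.0 to 12739.7 at 8 weeks and 26241.5 to 50795.8 at 11 weeks (12 of 13 with a positive log2 fold change). The 8 fibroblast markers summed to 773.0 to 1098.6 and 1455.6 to 3248.3 (8 of 8 positive), the 10 neutrophil markers to 1863.7 to 4506.7 and 5933.0 to 6670.4 (7 of 8 tested positive), and the 6 endothelial markers to 405.9 to 512.4 and 681.5 to 1235.3 (4 of 6 positive). The part of these cells in the differences below was not tested. Red cell markers summed to 7.2 to 54.6 at 8 weeks and 53.5 to 133.2 at 11 weeks (4 of 4 tested positive), with Hba-a2, Slc4a1 and Epb4.2 at 0 in all 6 libraries. Adipocyte markers spanned 412.0 to 866.0 and 400.2 to 586.7 (6 of 8 positive, with Plin1 and Lep at 0 at 8 weeks), lymphocyte markers 2646.8 to 3297.3 and 2083.7 to 3463.9 (8 of 10 positive), dendritic cell markers 5366.8 to 6877.2 and 3989.9 to 5128.9 (4 of 7 positive), and eosinophil markers 217.0 to 356.1 and 120.0 to 766.0 (1 of 5 tested positive, with Prg2 and Epx at 0 throughout).

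Antioxidant response elements share the core TGACNNNGC, in which N is any base. The 250 bases before the transcription start were searched on both strands for this core in the RefSeq promoter table (GRCm38.p6). A match overlaps an AP-1 motif (TGACTCA) when the free bases allow it. Of 31 members with an entry (Gclc, Prdx6, Gsr and Abcc1 had none), 8 held a match, which is 25.8% against 11.5% of all 27025 genes; over single stretches 10.2% of all 32851 held it. The 8 were Nfe2l2, Gclm, Txnrd1, Prdx1, G6pdx, Sod1, Mgst1 and Mafg. A match is a description of letters and not a shown site. Of the 8 members with an entry that were higher in every 11-week library, 4 held a match (Gclm, Txnrd1, G6pdx and Mgst1). Srxn1, Txn1, Gss and Sod2 held none, and a link between match and change was not tested. From these 4, the upstream stretches of Gclm and Txnrd1 are printed 5′ to 3′ on the gene's strand with the match in capitals. The core reads on the opposite strand in each, so the capitals show its complement. Its own letters are TGACGGTGC in Gclm and TGACAAAGC in Txnrd1. The capitals run from 134 to 126 bases before the start in Gclm and from 92 to 84 in Txnrd1. The Gclm stretch is chr3:122245307-122245556 and the Txnrd1 stretch chr10:82858956-82859205, both on the plus strand; for Txnrd1 this is the stretch that holds the match among 3 in the table. In Prdx1, whose ages overlapped, the core was TGACTCAGC, which holds the AP-1 motif.
Gclm: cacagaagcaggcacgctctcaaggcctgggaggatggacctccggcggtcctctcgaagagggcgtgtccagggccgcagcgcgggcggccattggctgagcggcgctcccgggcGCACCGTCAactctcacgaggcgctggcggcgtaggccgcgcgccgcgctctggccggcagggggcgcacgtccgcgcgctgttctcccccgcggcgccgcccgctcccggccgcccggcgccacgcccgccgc
Txnrd1: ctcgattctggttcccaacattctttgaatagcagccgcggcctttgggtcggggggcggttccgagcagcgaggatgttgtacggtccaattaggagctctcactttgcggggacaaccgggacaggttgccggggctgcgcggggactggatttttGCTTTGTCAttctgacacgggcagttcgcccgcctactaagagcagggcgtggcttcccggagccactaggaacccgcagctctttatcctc

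The comparison of 11 with 8 weeks asks how macrophage expression differs between earlier and later tumour stages. Tumour stage and the age of the mice change together here and cannot be told apart. Transcripts of the enzymes that build glutathione (Gclc, Gclm, Gss), of thioredoxin and its reductase (Txn1, Txnrd1), of sulfiredoxin (Srxn1) and of a membrane glutathione transferase (Mgst1) were at higher values in every 11-week library than in any 8-week library, with log2 fold changes of 0.72 to 1.22. G6pdx of the pentose phosphate pathway and the mitochondrial dismutase Sod2 were also higher in every 11-week library, with log2 fold changes of 0.17 and 0.50. Catalase (Cat) and transketolase (Tkt) were at lower values in every 11-week library, with log2 fold changes of -0.50 and -0.25. No member passed limma at an adjusted p of 0.05 over all 21675 genes tested, of which 0.0507% passed, and the smallest adjusted p was 0.244 (Txn1). On the recovered whole reads, edgeR likewise called none of the 35 (0.0646% of genes), and DESeq2 called Txn1 and Gclc (2.73% of genes with an adjusted p). The transcript of NRF2 itself and those of the 6 peroxiredoxins had log2 fold changes between -0.03 and 0.31, and their ages overlapped. In bulk RNA of sorted cells, fewer cells of a type and less RNA per cell cannot be told apart.

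Of the 35 members, 9 were higher without overlap (25.7%; 6.81% of all tested genes were) and 2 were lower without overlap (5.7%; 5.12% of all tested genes were). Over the genes whose mean reached 100 in either age, those shares were 8.1% and 7.65%. When libraries were scaled to their totals, Txnrd1, G6pdx and Sod2 overlapped, which left 6 higher, and Tkt gave way to Txnip among the 2 lower. At an unadjusted p under 0.05, limma gave 7 members higher and 1 lower, where 4.76% and 3.27% of all tested genes were, 8.03% in all. The log2 fold change was positive in 29 of 35, against 52.8% of all tested genes. The median was 0.21 over the members and 0.05 over all tested genes. The members were chosen with earlier results of these data known, so these comparisons describe the list and do not test it.

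**Figure D1:**
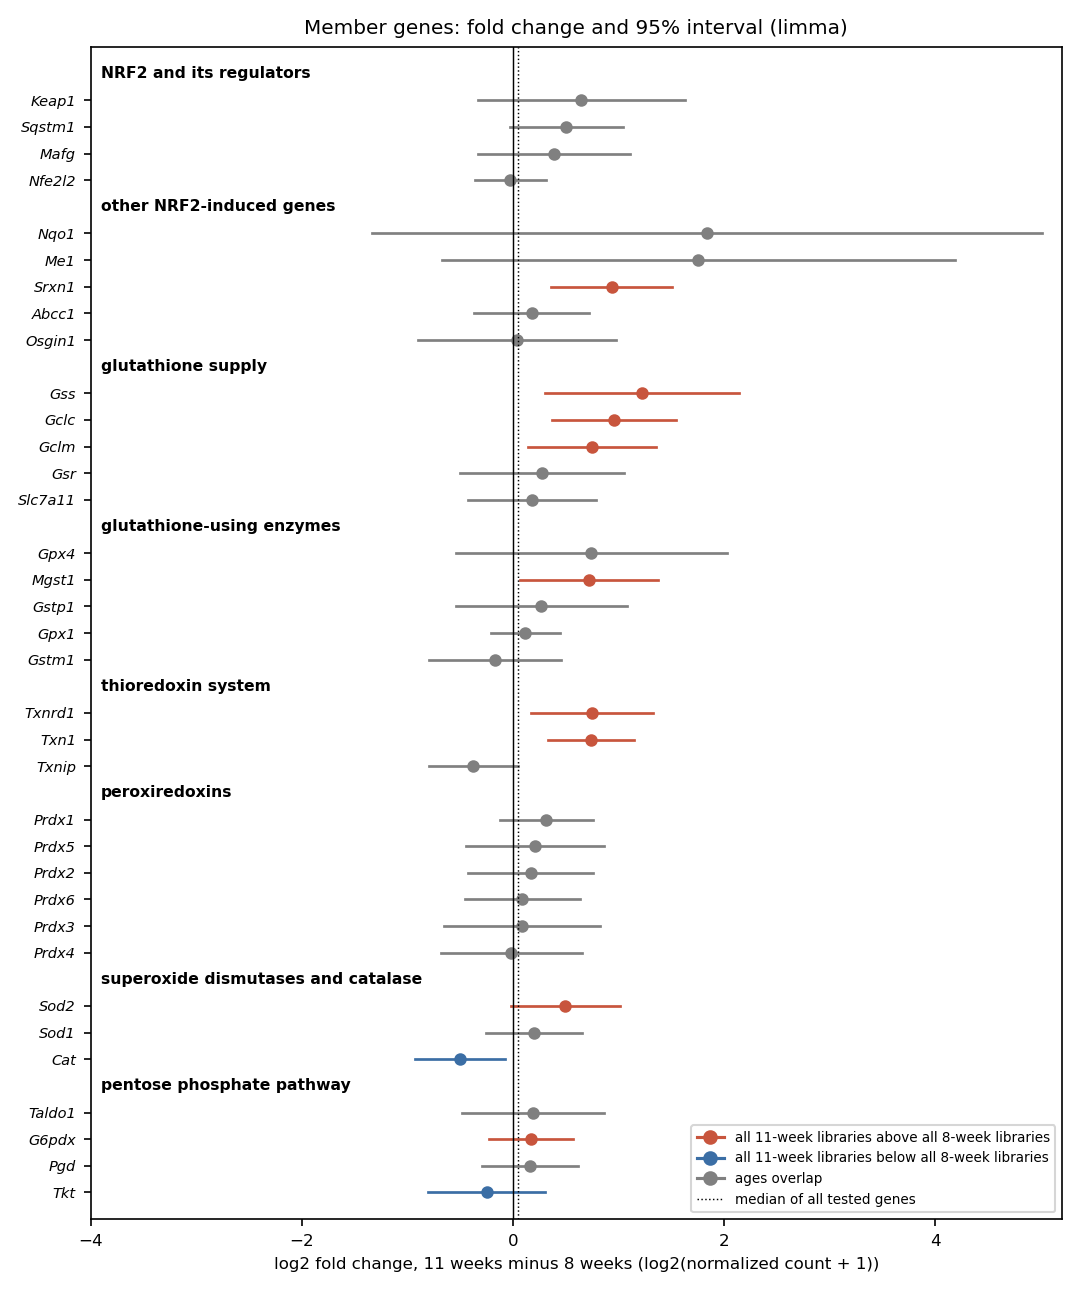
Log2 fold change of the 35 members, 11 weeks minus 8 weeks, on the x axis, grouped by role on the y axis; points are limma estimates on log2(normalized count + 1), bars their 95% intervals, and the dotted line is the median of all tested genes. Of the 9 members whose 11-week libraries all lay above the 8-week libraries, Mgst1 stands among the glutathione-using enzymes and Srxn1 among the other NRF2-induced genes. Sod2 stands with the superoxide dismutases and catalase, and G6pdx in the pentose phosphate pathway. The rest stand in glutathione supply and the thioredoxin system, and none of the regulators or peroxiredoxins is among the 9.

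Among NRF2 and its regulators, Nfe2l2 was at 22027.8, 22206.2 and 20395.8 normalized counts at 8 weeks (replicates 1, 2 and 3) and at 17830.6, 22469.2 and 23627.6 at 11 weeks. The 11-week libraries held both the lowest and the highest value. The log2 fold change was -0.03 ± 0.16 (SE), with a 95% interval of -0.36 to 0.31. Keap1, the NRF2 anchor, was at 197.1, 333.9 and 274.2 normalized counts at 8 weeks, against 468.9, 328.6 and 451.4 at the later age. Only 11-week replicate 2 lay within the 8-week range (log2 fold change 0.65 ± 0.46 SE, with an adjusted p by limma of 0.784). Sqstm1 encodes p62, an autophagy adaptor that binds KEAP1. It was at 15073.1, 20255.6 and 12770.5 normalized counts at 8 weeks, against 21087.4, 15135.4 and 35041.3 at the later age. Replicate 3 of 11 weeks stood far above the rest, and the log2 fold change of 0.51 ± 0.25 (SE) was 0.18 without it. Mafg, a small MAF partner of NRF2, had a log2 fold change of 0.39 ± 0.34 (SE) with overlapping ages, and 0.16 to 0.81 when a library was left out (without 8-week replicate 1 and without 11-week replicate 2).

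Glutathione is made from cysteine, glutamate and glycine by glutamate-cysteine ligase, of which Gclc encodes the catalytic and Gclm the modifier subunit, and then by glutathione synthetase (Gss). Gclc stood at 1756.5, 1961.7 and 1242.7 normalized counts at 8 weeks, against 3024.2, 2496.0 and 4180.1 at the later age. The ages did not overlap, and the log2 fold change was 0.96 ± 0.28 (SE, with an adjusted p by limma of 0.31). Gclm gave 875.6, 1084.8 and 1048.0 normalized counts at 8 weeks, against 1448.2, 1632.1 and 1994.9 at the later age. Its ages lay clearly apart, with a log2 fold change of 0.75 ± 0.28 (SE, with an adjusted p by limma of 0.499). Gss gave 428.0, 314.5 and 262.2 normalized counts at 8 weeks, against 613.3, 577.6 and 1272.5 at the later age. All 3 later libraries were higher, most of all replicate 3 (log2 fold change 1.22 ± 0.43 SE, with an adjusted p by limma of 0.452; 0.86 without 11-week replicate 3). Exons of Gss overlap Acss2 and 2 antisense genes, Gssos1 and Gssos2, which were at no more than 253.2, 54.7 and 5.5 normalized counts in any library, and no source says that counting used strand.

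The other genes of glutathione supply did not separate by age. Slc7a11 encodes the cystine importer xCT. It was at 2458.2, 3715.6 and 1987.5 normalized counts at 8 weeks, against 4152.4, 2414.4 and 2646.5 at the later age (log2 fold change 0.18 ± 0.29 SE, 95% interval -0.42 to 0.79). Gsr, the reductase that returns oxidized glutathione to its reduced form, was at 578.7, 683.0 and 444.1 and at 589.4, 821.6 and 641.7. Its log2 fold change was 0.27 ± 0.37 (SE, 95% interval -0.51 to 1.05). The number of Gclc counts per Gclm count was 1.67 ± 0.43 at 8 weeks and 1.90 ± 0.32 at 11 weeks (SD, n = 3; exact permutation p = 0.5, two-sided), a ratio within each library that does not depend on library scaling.

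**Figure D2:**
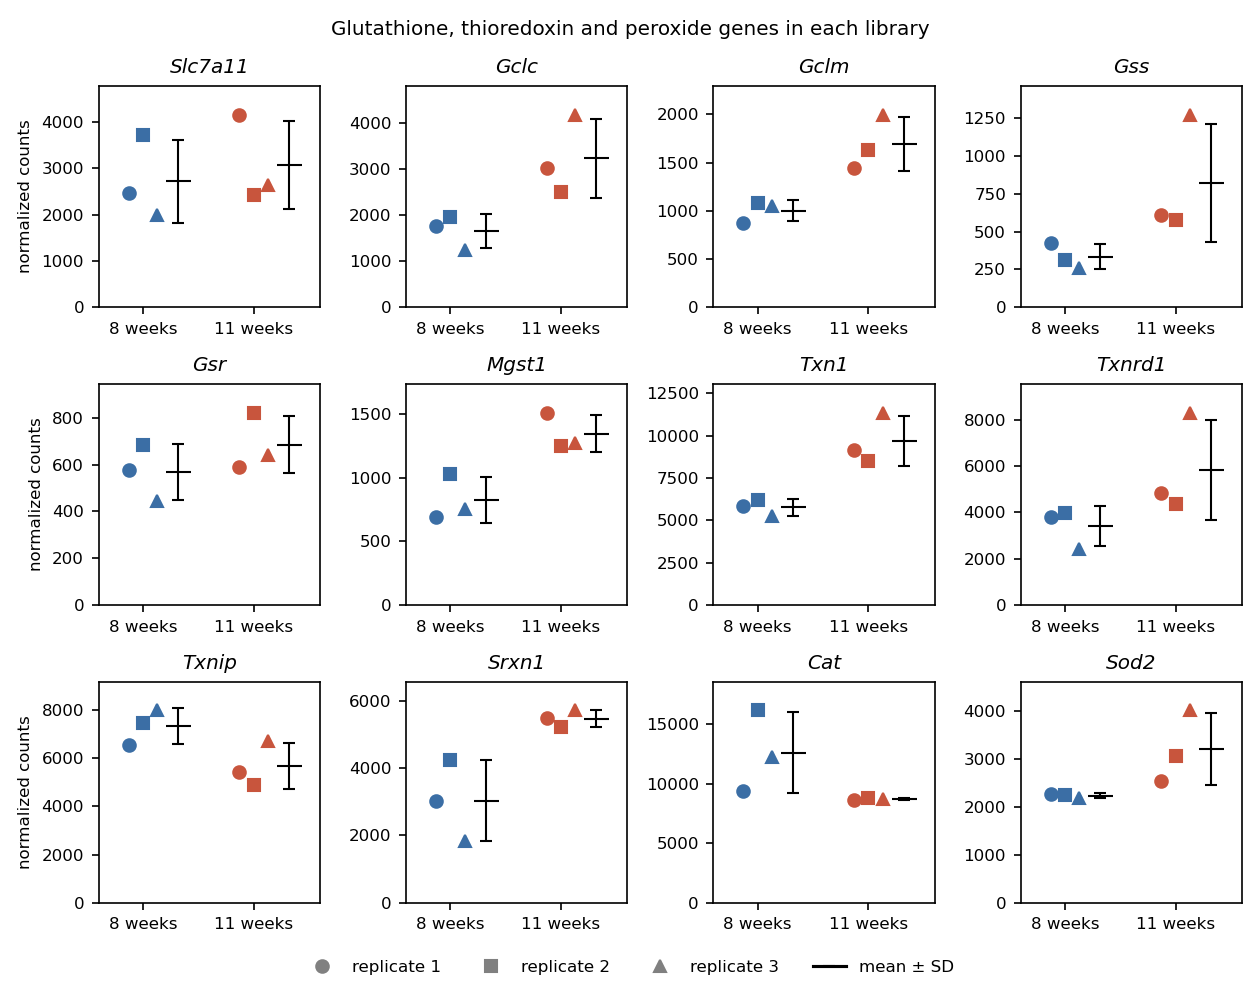
Normalized counts on the y axis in each of the 6 libraries for 12 members, by age on the x axis, with replicates 1, 2 and 3 as circle, square and triangle and the mean ± SD in black; each y axis starts at 0 and has its own scale. Gclc, Gclm, Gss, Mgst1, Txn1, Txnrd1, Srxn1 and Sod2 do not overlap between ages and are higher at 11 weeks, Cat is lower, and Slc7a11, Gsr and Txnip overlap.

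Thioredoxin (Txn1) reduces oxidized proteins and peroxiredoxins and is itself reduced by thioredoxin reductase (Txnrd1) with NADPH. Txn1 was at 5819.7, 6220.3 and 5226.2 normalized counts at 8 weeks, against 9168.2, 8527.4 and 11352.9 at the later age. The lowest later library was well above the highest earlier library. The log2 fold change was 0.74 ± 0.19 (SE, with an adjusted p by limma of 0.244), the smallest p among the members. Txnrd1 was at 3826.9, 3967.7 and 2424.8 and at 4829.1, 4380.1 and 8316.7 normalized counts. Its ages did not overlap, but 11-week replicate 3 was the highest by far (log2 fold change 0.75 ± 0.27 SE, with an adjusted p by limma of 0.478; 0.47 without that library). Txnip, the thioredoxin-binding inhibitor, was at 6524.1, 7463.0 and 7963.6 normalized counts at 8 weeks, against 5425.9, 4876.1 and 6718.8 at the later age. Only 11-week replicate 3 reached the 8-week range (log2 fold change -0.38 ± 0.20 SE, with an adjusted p by limma of 0.673).

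The number of Txn1 counts per Txnip count was 0.892, 0.833 and 0.656 at 8 weeks, against 1.69, 1.75 and 1.69 at 11 weeks. The later libraries were nearly equal to each other and all above the earlier libraries. The exact permutation test gave p = 0.1 (two-sided), the smallest that 3 libraries against 3 allow, and 0.2 adjusted over the 2 ratios tested. This ratio and that of Gclc to Gclm were chosen after the values were seen, so their p-values describe the separation and do not test it. The adjustment covers only these 2 ratios and not the other pairs of members that could have been formed. They compare libraries and are not ratios of molecules, since the genes differ in length.

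Peroxiredoxins are thiol peroxidases that reduce hydrogen peroxide. All 6 overlapped between the ages, and their log2 fold changes ran from -0.01 (Prdx4) to 0.31 (Prdx1). Prdx1, the abundant cytosolic form, was at 5324.8, 6485.0 and 5296.3 normalized counts at 8 weeks, against 7809.2, 8022.3 and 5610.3 at the later age. Here replicate 3 of 11 weeks was the library that stayed within the 8-week range (95% interval of the log2 fold change -0.13 to 0.75). Prdx2, also cytosolic, gave 1628.1, 1494.8 and 1572.4 and then 1521.7, 1471.8 and 2422.7, so that its log2 fold change of 0.17 ± 0.28 (SE) rested on 11-week replicate 3 and was -0.06 without it. Prdx2 shares 173 exon bases with Junb on the other strand, which was at 7964.1 to 12046.3 normalized counts and also highest in that library; the part of this overlap was not tested. Prdx3 (mitochondrial), Prdx4 (endoplasmic reticulum), Prdx5 and Prdx6 had log2 fold changes of 0.09, -0.01, 0.21 and 0.09, with 95% intervals that together ran from -0.68 to 0.86.

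Srxn1 encodes sulfiredoxin, which repairs over-oxidized peroxiredoxins. Srxn1 was at 3011.1, 4243.4 and 1832.9 normalized counts at 8 weeks, against 5481.9, 5213.8 and 5711.8 at the later age. The later libraries lay close together and above the scattered earlier libraries (log2 fold change 0.93 ± 0.27 SE, with an adjusted p by limma of 0.31; 0.61 without 8-week replicate 3, the lowest library). That Srxn1 and the peroxiredoxins differed from each other in their change was not tested.

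The other NRF2-induced members were low or did not separate. Nqo1, a quinone reductase often used as an NRF2 reporter, was at 40.1, 0 and 26.5 normalized counts at 8 weeks, against 13.8, 55.4 and 60.7 at the later age. At this level the log2 fold change of 1.84 had a 95% interval of -1.34 to 5.01, which spans both directions. It was 0.15 without 8-week replicate 2, the library at 0, and edgeR and DESeq2 gave 0.94 and 0.96. Me1, the cytosolic malic enzyme, was at 54.4, 6.9 and 30.7 and at 139.8, 20.2 and 177.6 normalized counts, with replicate 2 the lowest at both ages (log2 fold change 1.76, 95% interval -0.67 to 4.18, and 0.95 without 8-week replicate 2). Osgin1, an oxidative stress induced growth inhibitor, and Abcc1, an exporter of glutathione conjugates, had log2 fold changes of 0.04 ± 0.44 and 0.18 ± 0.26 (SE).

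Of the enzymes that use glutathione, Mgst1, a membrane-bound transferase with peroxidase activity, was at 691.0, 1027.9 and 750.8 normalized counts at 8 weeks, against 1511.6, 1250.0 and 1270.7 at the later age. The ages did not overlap (log2 fold change 0.72 ± 0.31 SE, with an adjusted p by limma of 0.579). Gpx1, the main cytosolic glutathione peroxidase, was at 26484.2, 20730.8 and 24308.5 and at 23318.1, 27441.1 and 26657.5 normalized counts. Both ages covered nearly the same range, and the 95% interval of its log2 fold change was -0.21 to 0.44. Gpx4, which reduces lipid peroxides in membranes, was at 165.8, 249.4 and 79.4 and at 243.7, 191.5 and 333.5 (log2 fold change 0.74 ± 0.61 SE; 0.30 without 8-week replicate 3 and 1.11 without 8-week replicate 2). The soluble transferases Gstm1 and Gstp1 had log2 fold changes of -0.17 ± 0.29 and 0.27 ± 0.38 (SE). Both have close paralogs with which reads may be shared, of which Gstm2 was at 4.5 to 72.6 and Gstp2 at 0.9 to 22.1 normalized counts.

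Superoxide dismutases turn superoxide into hydrogen peroxide, which catalase breaks down. Sod2, the mitochondrial dismutase, was at 2279.0, 2263.7 and 2183.1 normalized counts at 8 weeks, against 2552.5, 3074.7 and 4021.5 at the later age. The earlier libraries were nearly equal and the later libraries spread above them (log2 fold change 0.50 ± 0.24 SE, with an adjusted p by limma of 0.643; 0.32 without 11-week replicate 3). Sod1, the cytosolic dismutase, overlapped between the ages (log2 fold change 0.20 ± 0.21 SE). Cat was at 9404.1, 16157.7 and 12262.3 normalized counts at 8 weeks, against 8651.4, 8778.4 and 8690.1 at the later age. The later libraries agreed within their narrow spread and lay below all earlier libraries, of which replicate 1 was close (log2 fold change -0.50 ± 0.20 SE, with an adjusted p by limma of 0.543; -0.30 without 8-week replicate 2).

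The pentose phosphate pathway supplies NADPH through G6pdx, its first enzyme, and Pgd. G6pdx was at 5783.1, 5795.0 and 6279.3 normalized counts at 8 weeks, against 7340.2, 6439.6 and 6340.8 at the later age. The ages did not overlap, but the gap was small (log2 fold change 0.17 ± 0.19 SE, 95% interval -0.23 to 0.57). Its exons overlap Ikbkg, at 560.1 to 2307.0 normalized counts, and its retrogene copy G6pd2 was at no more than 5.3. Tkt, the transketolase of the non-oxidative branch, was at 1691.4, 1731.7 and 1683.4 and at 1365.4, 1304.5 and 1645.9 normalized counts, lower in every later library by a margin that was narrow in replicate 3 (log2 fold change -0.25 ± 0.26 SE). The ages of Tkt overlapped under library totals, upper-quartile scaling and totals without mitochondrial ribosomal RNA. Pgd and Taldo1, a transaldolase, overlapped, with log2 fold changes of 0.16 and 0.19.

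**Figure D3:**
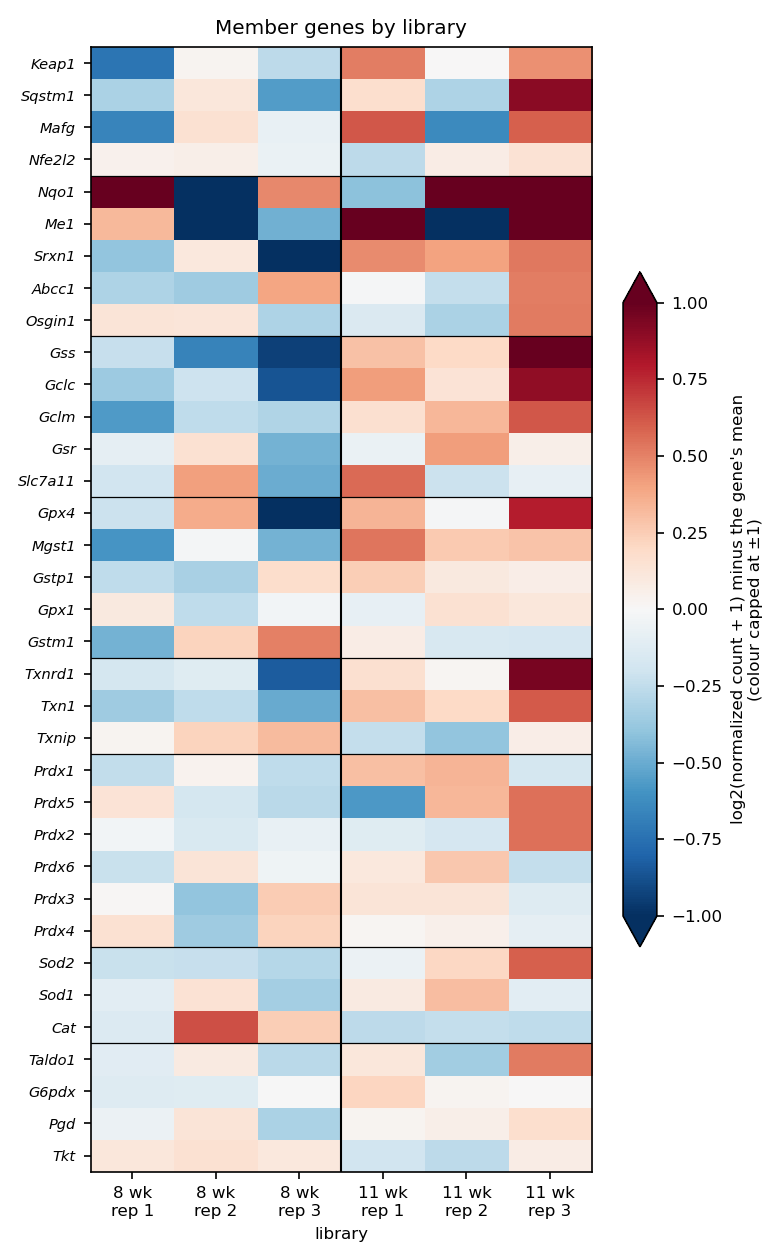
Each member's log2(normalized count + 1) minus its mean over the 6 libraries, by library on the x axis and by gene on the y axis in role groups, with colour capped at ±1. The 11-week columns are mostly red (above the mean) in the glutathione supply and thioredoxin groups apart from Txnip, and 11-week replicate 3 holds the highest value of 18 members. How many of all tested genes are highest in that library was not counted.

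Libraries contributed unequally. Of the 35 members, 18 had their highest value in 11-week replicate 3 and 6, 5, 4, 2 and 0 in 11-week replicate 1, 11-week replicate 2, 8-week replicate 3, 8-week replicate 2 and 8-week replicate 1. The lowest value fell in 8-week replicate 3, the deepest library and the highest in mitochondrial ribosomal RNA (51.8%), for 13 members. Highest and lowest libraries were not counted over all tested genes, so whether the members differ from other genes in this is not known. Genes with a read numbered 19722 in 11-week replicate 3 and 17450 in 8-week replicate 3, within a range of 17385 to 19722 over the 6 libraries. In 11-week replicate 3 the fibroblast and endothelial marker sums were also the highest of the 6 libraries (3248.3 and 1235.3), while the epithelial sum was 47317.6 against 50795.8 in 11-week replicate 1. The part of these cells was not tested. Without 11-week replicate 3, 25 of 35 members were positive and the member median was 0.23, and without 8-week replicate 3, 29 were and it was 0.23.

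Levels of different genes were compared only per kilobase of annotated exon (GENCODE M21, GRCm38, the union of all transcripts of a gene), as the mean over the 6 libraries. Gpx1 was the highest at 17227 normalized counts per kilobase, followed by Txn1 (7345), Sqstm1 (5928), Nfe2l2 (5644) and Cat (4079). Below Gpx1 the order differed by age: at 8 weeks it was Nfe2l2 (5675), Txn1 (5476), Cat (4825) and Sqstm1 (4777), and at 11 weeks Txn1 (9213), Sqstm1 (7078), Nfe2l2 (5614) and Cat (3332). Of the 35 members, 17 lay at or above the 90th percentile of 21438 tested genes with a known length. Me1, Nqo1 and Keap1 were the lowest, at 18.6, 21.1 and 72.9 normalized counts per kilobase. The neighbours Sqstm1 and Nfe2l2 differed by less than the spread of Sqstm1 between libraries.

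The spans of the 11 members that did not overlap between ages are given in GRCm38 by the deposited table, and all are annotated as protein coding with 1 total per gene. Gclc (ENSMUSG00000032350) covers 77754535 to 77794485 of chromosome 9. Gclm covers 122245557 to 122269984 of chromosome 3, Gss 155563181 to 155592810 of chromosome 2, and Srxn1 152105516 to 152111376 of chromosome 2. Txn1 lies on chromosome 4 from 57943373 to 57956411 and Txnrd1 on chromosome 10 from 82859206 to 82897724. Mgst1 lies on chromosome 6 from 138140316 to 138156755, G6pdx on chromosome X from 74409483 to 74429194, Sod2 on chromosome 17 from 13007839 to 13018119, Cat on chromosome 2 from 103453849 to 103485160 and Tkt on chromosome 14 from 30548359 to 30574722.

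In the authors' deposited table, 1 of the 35 members had an adjusted p under 0.05, Txn1 (fold ratio 1.635, adjusted p = 0.017), where 1.91% of the genes with an adjusted p did. The authors' deposited table lists Gclc at a fold ratio of 1.814 with an adjusted p of 0.05, Gclm at 1.619 with 0.074 and Gss at 2.037 with 0.082. It gives fold ratios above 1 for 29 of 35 members.

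Genes of the same pathways outside the 35 were described from 8 further lists with 110 entries, of which 104 were tested. Of these 67 had a positive log2 fold change, with a median of 0.10, and 8 were higher (7.7%, against 6.81% of all tested genes) and 3 lower (2.9%, against 5.12%) without overlap, shares near or under those of all genes. A single gene passed limma over all genes, Hmox1, the NRF2-induced heme oxygenase, which was at 17309.3, 31136.4 and 20315.6 normalized counts at 8 weeks, against 106108.2, 70064.9 and 116365.3 at the later age (log2 fold change 2.10 ± 0.21 SE, with an adjusted p by limma of 0.000745). Among the other 19 NRF2 targets the smallest p was that of Fth1, the ferritin heavy chain (log2 fold change 0.68 ± 0.22 SE, with an adjusted p by limma of 0.422). That list had 15 of 20 positive, a median of 0.19, and 1 higher and 1 lower without overlap (6.81% and 5.12% of all tested genes were).

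Glutathione turnover genes had 9 of 12 positive and a median of 0.45. Cndp2, a dipeptidase, went with overlap from 6575 ± 1495 to 10002 ± 3225 normalized counts (SD over 3 libraries, adjusted p by limma of 0.559), and Ggt1, the gamma-glutamyl transferase, was at 0 to 34.6 and 19.9 to 62.5. The other glutathione transferases had 10 of 16 positive and a median of 0.33, led by Gstm4 at 155 ± 26.9 and 363 ± 170 (SD over 3 libraries, adjusted p by limma of 0.658) and the low Gstp2 above. Thioredoxin-like, glutaredoxin and methionine sulfoxide reductase genes had 10 of 17 positive and a median of 0.08. Sesn1, a sestrin, stood apart there at 2653.5, 2136.3 and 2294.1 normalized counts at 8 weeks, against 3769.9, 4045.4 and 4107.6 at the later age (log2 fold change 0.76 ± 0.22 SE, with an adjusted p by limma of 0.311), and Msrb3 ranged from 0.9 to 132.0 and from 156.3 to 418.4.

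The list of other peroxidases and a superoxide dismutase had 6 of 7 tested positive, and the dismutase was the negative gene. Lpo and Mpo were at no more than 19.3 and 29.2 normalized counts. Gpx3, an extracellular glutathione peroxidase chosen here after its values were seen, was at 1066.4 to 2212.4 (log2 fold change 0.04 ± 0.32 SE). Relatives of NRF2, small MAF and KEAP1 ligase genes had 6 of 11 positive and a median of 0.10. Among them Nfe2l3 was at 804 ± 278 and 450 ± 145 and Cul3, the scaffold of the KEAP1 ligase, at 4849 ± 641 and 3674 ± 1347 (SD over 3 libraries, adjusted p by limma of 0.658 and 0.712). Other NADPH-producing enzymes had 6 of 12 positive and a median of -0.05, with Me2, the mitochondrial malic enzyme, at 2474.3 to 2717.7 and 2924.9 to 3204.9 and Aldh1l2 at 0 to 41.7. Genes of the phagocyte oxidase and nitric oxide synthase, which produce oxidants, had 5 of 9 positive and a median of 0.01. Cybb, the membrane subunit of the phagocyte oxidase, was at 30987 ± 2987 and 25310 ± 4507 (SD over 3 libraries, adjusted p by limma of 0.669).

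**Figure D4:**
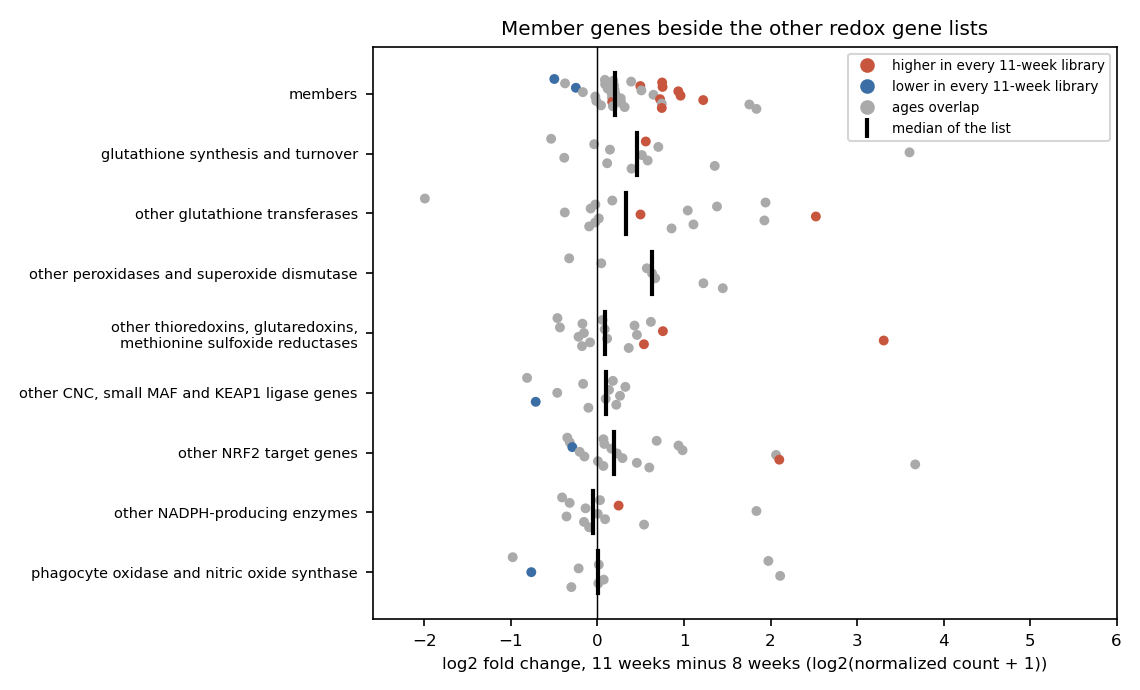
Log2 fold change, 11 weeks minus 8 weeks, of each tested gene on the x axis, for the 35 members and 8 further redox gene lists on the y axis; bars are list medians, and colour marks genes whose ages did not overlap. Of the 35 members 9 are higher without overlap (25.7%), of the 104 genes of the further lists 8 (7.7%), and of all tested genes 6.81%. The members and the lists were chosen with earlier results of these data known.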

How the data were processed

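The labels' protocols describe libraries from under 100 ng RNA made with a low-input amplification and a transposase kit. STAR 2.4, DESeq2 1.6 and GRCm38 are named, with no role, per the submitters' processing notes; the counter and the annotation used are not stated in any source here. The authors deposited 1 signal value per gene and library, gene counts divided by a size factor, together with their own log2 fold change, linear fold ratio, p-value and adjusted p-value. Columns were matched to samples by age and number. Whole reads were recovered within 0.05 normalized counts for 99.834% to 99.995% of the nonzero values.

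Genes with a mean of at least 1 in either age were tested with limma (trend, robust) on log2(normalized count + 1), with age as the only term and Benjamini-Hochberg adjustment over all of them; fold changes are on that scale, where the added 1 draws low values together but a library at 0 can still enlarge a difference. The members and the lists (237 entries, 234 matched) were chosen with earlier results of these data known. Named genes are all 35 members and, of each further pathway list, called genes and the 2 with the smallest p; marker lists are given as sums. A gene that this rule names and a marker are not reported here. Alternatives on the recovered reads were edgeR, limma-voom and DESeq2, and on the normalized values scaling, pseudocount, filter, a replicate block and leaving out each library. The limma and edgeR fits were tested on simulated counts with known fold changes, and the other steps were not. Precision is limited by 3 libraries per age and, for the low genes, by their few reads. Fits ran in R 4.3.3 (DESeq2 1.42.0, limma 3.58.1, edgeR 4.0.16) and tables and plots in Python 3.11.15 (scipy 1.17.1, pandas 2.3.3, matplotlib 3.10.9, numpy 2.4.6).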

Additional observations from a re-analysis of the deposited data

How the results depend on the processing

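No member passed limma or edgeR under any alternative; DESeq2 on the recovered reads called 2 (Txn1, adjusted p = 0.0144, and Gclc, 0.0385) among 422 genes, 2.73% of those with an adjusted p. The number of genes passing over the table was 27 with limma-voom, 4 with library totals, 5 with a pseudocount of 10, 45 with the replicate block, and 3 to 16 when a library was left out, against 11. Same-numbered libraries did not deviate together (correlations of -0.011, -0.004 and -0.01 over 11338 genes, and no library correlated best with its own number), so the numbers were not taken as pairs. With the replicate block no member passed. The member median of 0.21 could not change there, because each age holds the same replicate numbers and only the p-values can move. Of 629 member values under 18 alternatives, 606 kept direction and side and 21 changed sign, all of them in 11 members with small changes. The other 24 members never changed sign. The filters and the replicate block cannot move a log2 fold change in this design, so the values under them kept direction by construction. With library totals, which lower the median of all genes to -0.03, the log2 fold changes of Prdx3, Prdx6 and Osgin1 were -0.0023, -0.00019 and -0.047, and with upper-quartile scaling those of Nfe2l2 and Prdx4 were 0.011 and 0.023. Leaving out libraries gave ranges of -0.10 to 0.10 (Nfe2l2), -0.056 to 0.43 (Slc7a11), -0.064 to 0.30 (Prdx2), -0.089 to 0.23 (Prdx3), -0.19 to 0.10 (Prdx4), -0.019 to 0.55 (Prdx5), -0.024 to 0.23 (Prdx6), -0.021 to 0.41 (Taldo1), -0.45 to 0.042 (Gstm1), -0.21 to 0.21 (Osgin1) and -0.034 to 0.42 (Abcc1). The values of Prdx1, G6pdx, Pgd, Gsr, Gpx1, Sod1 and Gstp1 stayed positive, between 0.021 and 0.48, but moved by over 1.5 times. Members higher without overlap numbered 6 with library totals (Gclc, Gclm, Srxn1, Txn1, Gss and Mgst1; 4.73% of tested genes were) and 10 with upper-quartile scaling (7.44% were), and members lower without overlap numbered 1 there (Cat; 4.67% were) against 2. The cause of these changes was not tested. Scaling to totals without mitochondrial ribosomal RNA, and counting non-overlap by scaling, were chosen after seeing the data.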
